A study of Rattus norvegicus with 24 samples.

Results

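Among 24 rat lung samples, those titled A4, B4 and C4 stood apart together: Dbp, Per2, Nr1d1 and other clock genes, Alox15 and Cyp1a1 were higher in all 3 than in their letters' other samples. Each title pairs 1 of 4 letters (A, B, C, G) with 1 of 6 numbers. The 3 samples were chosen from these same expression values, by comparing number 4 with numbers 3, 5 and 6 of the same letter, so that A4, B4 and C4 were set against A3, A5, A6, B3, B5, B6, C3, C5 and C6 (3 of 24 samples against 9). Differences in that contrast are therefore a description and carry no test. All samples, controls if there are any included, are labelled as rat lung tissue and smoky coal, a bituminous coal that burns with much smoke and releases polycyclic aromatic hydrocarbons; the series is described as a rat model of lung cancer. Dose, duration, strain, age, hour of collection and the meaning of letters and numbers are not given in the sources used here. The labels do not say that the samples came from separate animals, so the p-values below measure only the spread between these samples. G4 against G3, G5 and G6 (1 sample against 3) is given beside the main contrast, because those samples did not choose it.

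The mammalian clock is a feedback loop of transcription factors. ARNTL (also called BMAL1) pairs with CLOCK or NPAS2 and switches on genes that carry E-boxes, among them the Per and Cry repressors, Nr1d1 and Nr1d2, Ciart and the output factors Dbp and Tef. PER and CRY proteins then block that pair, while the receptors encoded by Nr1d1 and Nr1d2 hold Arntl and Npas2 down, so the repressors and Arntl peak at opposite times of day. In lung the loop runs in most cell types, club cells included.

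The table gives normalized counts of 30667 genes, whose sums per sample ran from 61717516 to 66007148, with A4, B4 and C4 between 63666282 and 66007148. Sftpc, the surfactant gene that marks alveolar type 2 cells, had 649422, 850227 and 786369 normalized counts in A4, B4 and C4, inside the 603887 to 932776 of the 21 other samples. A4 and B4 carried large amounts of skeletal muscle RNA, and A4 squamous and fat RNA as well. C4 did not. Values shared by all 3 are therefore given with C4 named. In bulk tissue, more cells of a type and more RNA per cell cannot be told apart.

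A gene was counted as shared when the number 4 sample lay at least 2-fold from the mean log2 value of numbers 3, 5 and 6 of its letter and outside their range, in the same direction in A, B and C. Of 21935 genes with a mean of at least 10 normalized counts over the samples numbered 3 to 6, 49 were higher in A4, B4 and C4 by this rule (0.223% of those examined) and 4 lower (0.0182%). Since the rule used this contrast, nothing is read from these shares. With 3-fold in place of 2-fold, 11 were higher and 0 lower. Just inside the limit were Myoc, Cyp1a1 and Cd207, whose smallest differences over the 3 letters were 1.0005, 1.03 and 1.03 on the log2 scale, and just outside it BB187690, Trim10 and Trim58, at 0.9955, 0.98 and 0.98. Of the 49, 12 had A4, B4 and C4 above each of the 21 other samples, as 0.442% of all genes examined did. In 11 of the 49 the log2 difference in A4 was over 4. Under 50 normalized counts in at least 1 of the 3 samples were found for 22, and 27 remain when 50 is asked of each, a setting chosen after seeing the data. The 4 lower genes (A130023I24Rik, Gm8416, Zfp493 and Zdhhc22) had between 1.12 and 7.31 normalized counts in A4, B4 and C4, and 0 of them remain at that setting. As background only, a linear model of the same 12 samples with the letter as a block (limma) put 29 genes higher (0.0946%) and 11 lower (0.0359%) at an adjusted p under 0.05. These samples chose the contrast, so the counts are not a test of it; no gene was called when A4 or when B4 was left out, and 106 when C4 was.

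**Figure D1:**
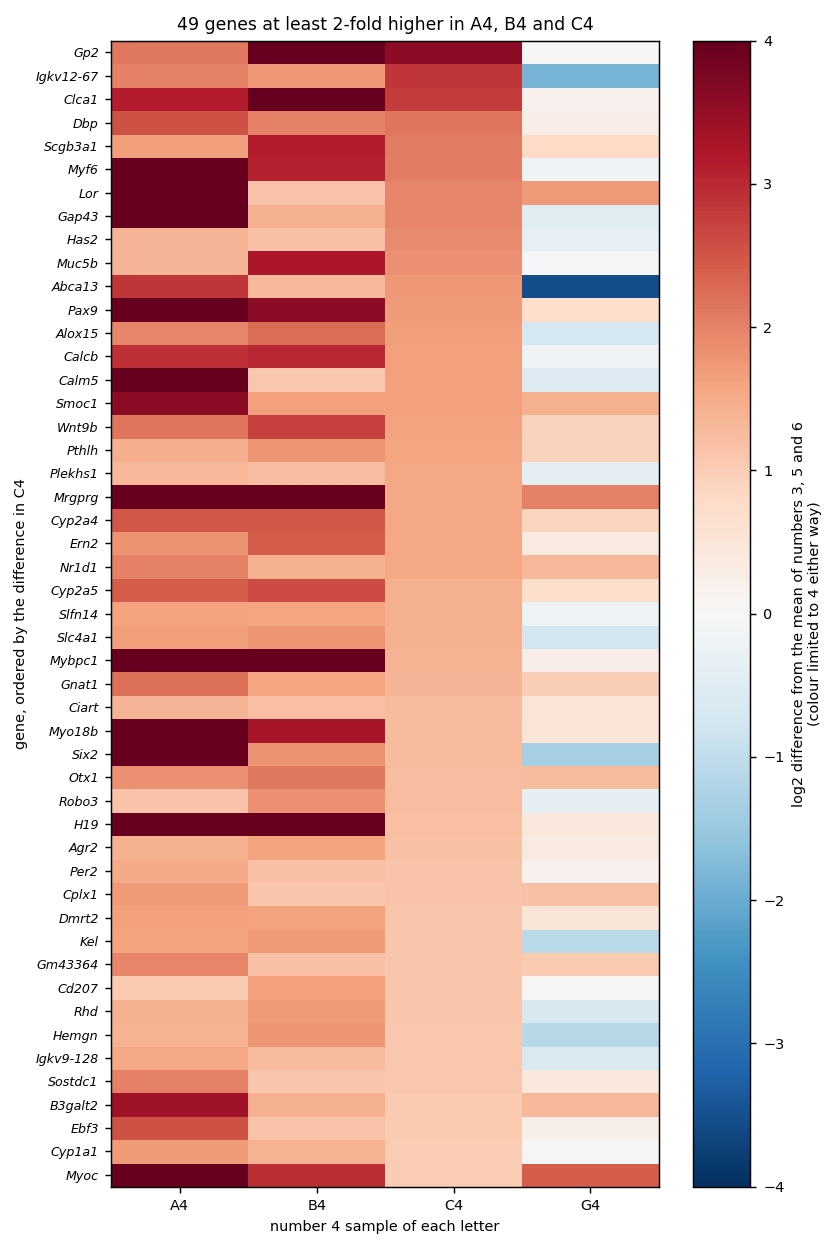
Log2 differences between the number 4 sample of each letter and the mean of numbers 3, 5 and 6 of that letter, for the 49 genes higher in A4, B4 and C4. Columns are letters, rows genes ordered by C4, and colour is limited to 4 either way. The G4 column is mixed: Nr1d1 is at 1.34 and Alox15 at -0.71.

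The clock output gene Dbp encodes a PAR bZIP factor that relays the clock's rhythm to metabolic genes. Dbp had 3574, 3198 and 3617 normalized counts in A4, B4 and C4. In numbers 3, 5 and 6 it had 447, 572 and 887 in A, 595, 1159 and 716 in B, and 1195, 616 and 759 in C. The 3 samples lay above every other sample of the series, where Dbp reached at most 1195. The log2 difference was 2.55 in A, 2.02 in B and 2.13 in C, a mean of 2.23 ± 0.28 (SD over the 3 letters). Tef, a second PAR bZIP gene, had 12931, 13564 and 12851 normalized counts against at most 10641 elsewhere. Hlf, the third, was higher by less, with log2 differences of 0.81, 0.45 and 0.32. It did not clear all other samples: C4 had 1191 normalized counts, against 1222 in C1 and 1354 in G1.

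Nr1d1, which encodes the repressor REV-ERB alpha, had 19850, 14053 and 18275 normalized counts in A4, B4 and C4. Its other values were 3730, 4017 and 8074 in A3, A5 and A6, 4808, 5311 and 5496 in B3, B5 and B6, and 10146, 3785 and 6410 in C3, C5 and C6. The groups did not overlap, and C3 came nearest. Its mean log2 difference was 1.66 ± 0.30 (SD over 3 letters). Nr1d2, its paralog, had 8577, 8225 and 9246 against 3825 to 6186 in the 9 compared samples, a mean log2 difference of 0.85 ± 0.09.

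Of the period genes, which encode the repressors that feed back on ARNTL, Per2 and Per3 were higher and Per1 was not. Per2 had 3199, 3036 and 2861 normalized counts in A4, B4 and C4, against a lowest, median and highest of 950, 1207 and 1726 in the 9 compared samples. Per3 had 4076, 3879 and 4036, against 1276, 1835 and 2950. All 3 samples were above each of the 21 others for both genes. Per3 fell short of the 2-fold rule in B and C, with log2 differences of 1.34, 0.91 and 0.88. Per1, which also responds to glucocorticoids, had 4751, 19198 and 7700, so that A4 was the lowest A sample while B4 lay inside the range of its letter, with log2 differences of -1.15, 0.08 and -0.91. Ciart encodes a repressor of the CLOCK and ARNTL pair. It had 174, 177 and 158 normalized counts, above the 86.8 that was the highest of the 9 compared samples, and its log2 differences were 1.36, 1.22 and 1.28.

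Over the whole list of 13 clock repressors and outputs, 10 had the number 4 sample above numbers 3, 5 and 6 in each of A, B and C. The exceptions were Per1 and the repressors Bhlhe40 and Bhlhe41. Across all genes examined 5.08% did so, and 3.78% had number 4 below in each letter. The size rule was met by 4 of the 13 (Dbp, Nr1d1, Per2 and Ciart). Cry2, which encodes a cryptochrome repressor, had 3347, 3193 and 3381 normalized counts against 1847 to 2906 in the 21 others. Usp2, a deubiquitinase gene under clock control, had 1137, 983 and 678, and in C4 its log2 difference was 0.12. Bhlhe41 was highest in number 3 in each of A, B and C, at 2879, 2933 and 2911 normalized counts. The list's median log2 difference was 0.89 in A, 0.68 in B and 0.57 in C, where all genes examined had medians between 0.00 and 0.01.

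**Figure D2:**
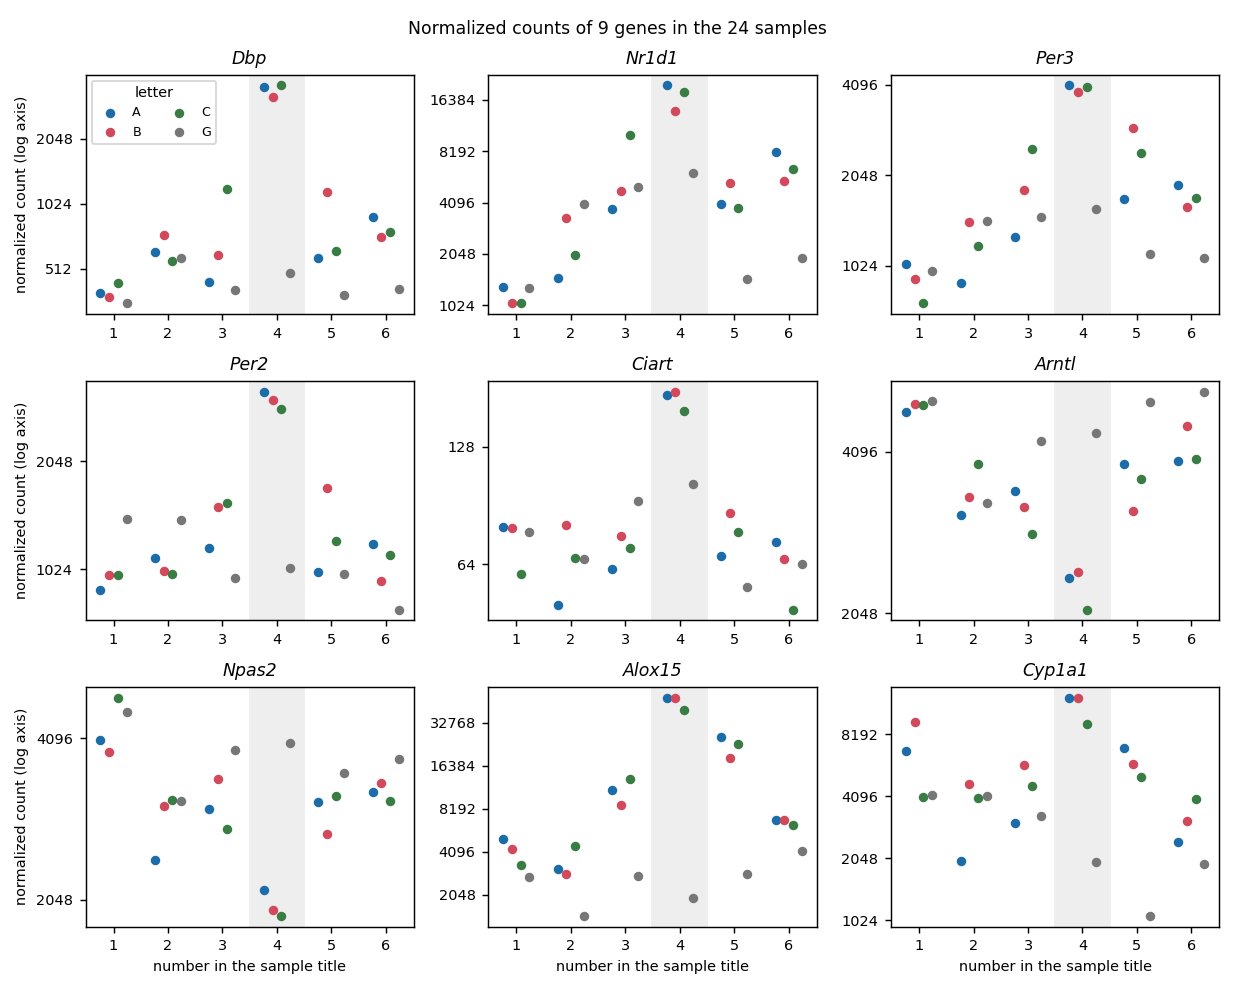
Normalized counts (log axis) of 9 genes in each of the 24 samples, by the number in the title, with a point per sample coloured by letter and number 4 shaded. A4, B4 and C4 are above the other samples for Dbp, Per2, Per3 and Alox15 and below them for Arntl and Npas2, while G4 lies among the others for these 6 genes.

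On the activating side of the loop the 3 samples were low for Arntl and Npas2. Arntl had 2383, 2449 and 2082 normalized counts in A4, B4 and C4, where the other samples ran from 2876 to 5309. Its log2 differences were -0.66, -0.56 and -0.74. Npas2, which encodes the partner that can stand in for CLOCK, had 2137, 1965 and 1914, against 2426 to 4874 elsewhere, with log2 differences of -0.55, -0.69 and -0.66. Both genes thus lay under all 21 other samples, as did 0.26% of all genes examined, against 0.442% above all 21. The other 6 genes of this list met neither condition. Clock itself differed by -0.10, -0.08 and -0.08 on the log2 scale. Nfil3, a repressor that competes with DBP for the same DNA sites, had log2 differences of -0.51, -0.23 and -0.23, with C4 (826) above C5 (748). Cry1 had log2 differences of -0.07, 0.16 and -0.04, and the nuclear receptor gene Rora had 0.30, 0.01 and -0.05. Arntl2, the paralog of Arntl, had 30.2, 24.9 and 16.7 normalized counts.

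Some of the rat promoters of these genes hold the elements that the loop is known to use and others hold none, and 5 were chosen for print because they hold such elements and their genes were higher together or, for Arntl, lower. Sequences are from RefSeq on assembly GRCr8 and run 5′ to 3′ from 250 bases before to 50 bases after the annotated start. Capitals mark, on either strand, the E-box CACGTG, its variant CACGTT, the D-box TTATGTAA (bound by DBP, TEF and NFIL3) and the core TAGGTCA of the ROR element through which REV-ERB proteins repress. No 2 of these motifs share bases in the promoters shown. The Ciart promoter (chr2:186112197-186112496, minus strand) holds 3 E-boxes. The Nr1d1 promoter shown (chr10:84229405-84229704, minus strand) is 1 of 2 listed and holds 1 E-box, and that of Tef (chr7:115206577-115206876, plus strand) also holds 1. The Per2 promoter (chr9:99496944-99497243, minus strand) holds the E-box variant and a D-box. The Arntl promoter, listed under the newer symbol Bmal1 (chr1:176766078-176766377, plus strand), holds the ROR element.
Ciart: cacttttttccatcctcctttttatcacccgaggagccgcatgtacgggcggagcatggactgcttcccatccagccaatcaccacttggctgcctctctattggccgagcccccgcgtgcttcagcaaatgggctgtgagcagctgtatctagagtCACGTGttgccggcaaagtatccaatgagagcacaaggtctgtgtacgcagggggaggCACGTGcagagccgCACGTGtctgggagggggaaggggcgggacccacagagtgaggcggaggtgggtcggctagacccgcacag
Nr1d1: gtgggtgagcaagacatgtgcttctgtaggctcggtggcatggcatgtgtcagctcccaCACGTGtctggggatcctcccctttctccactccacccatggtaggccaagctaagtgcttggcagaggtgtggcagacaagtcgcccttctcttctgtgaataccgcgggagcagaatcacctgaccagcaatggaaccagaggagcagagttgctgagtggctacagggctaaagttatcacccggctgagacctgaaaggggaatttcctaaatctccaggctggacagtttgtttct
Tef: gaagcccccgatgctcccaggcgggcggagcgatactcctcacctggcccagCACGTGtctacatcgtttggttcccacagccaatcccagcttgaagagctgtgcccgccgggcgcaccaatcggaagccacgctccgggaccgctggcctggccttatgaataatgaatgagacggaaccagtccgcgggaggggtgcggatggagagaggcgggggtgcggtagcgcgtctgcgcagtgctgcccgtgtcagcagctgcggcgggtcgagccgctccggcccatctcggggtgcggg
Per2: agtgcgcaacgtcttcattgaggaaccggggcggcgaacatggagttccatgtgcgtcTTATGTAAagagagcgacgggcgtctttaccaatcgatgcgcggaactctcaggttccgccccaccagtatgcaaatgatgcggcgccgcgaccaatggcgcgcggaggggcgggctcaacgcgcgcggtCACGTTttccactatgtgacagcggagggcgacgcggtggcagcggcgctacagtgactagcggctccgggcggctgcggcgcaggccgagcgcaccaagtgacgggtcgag
Arntl: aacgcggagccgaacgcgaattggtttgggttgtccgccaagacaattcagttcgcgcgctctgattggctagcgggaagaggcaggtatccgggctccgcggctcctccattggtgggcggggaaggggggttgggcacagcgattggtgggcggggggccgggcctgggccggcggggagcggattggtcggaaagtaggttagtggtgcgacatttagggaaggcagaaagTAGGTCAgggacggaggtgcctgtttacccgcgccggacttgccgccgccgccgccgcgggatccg

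Promoters were listed for 12 of the 13 repressor and output genes and for 5 of the 8 activator genes. Of those 12, 5 held CACGTG, 3 its variant and 1 the D-box, and 0 held the ROR element. The 5 with CACGTG were Tef, Nr1d1, Ciart, Bhlhe40 and Bhlhe41. Of these, Bhlhe40 and Bhlhe41 were not above their letters' compared samples in all of A4, B4 and C4. Of all 33469 rat promoters of this length, 6.42% held CACGTG, 4.83% the variant, 0.893% the D-box and 2.63% the ROR core. None of the 4 motifs is in the window of Dbp, Nr1d2, Per1, Per3 or Usp2, of which all but Per1 were above their letters' compared samples in A4, B4 and C4. On the activator side Arntl alone of the 5 holds one, and Npas2, also low in the 3 samples, holds none. A match is a description of letters and not a site of binding.

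In G4 none of the clock genes passed the test. Dbp had 489 normalized counts in G4, against 410, 389 and 415 in G3, G5 and G6, a log2 difference of 0.27 (SE 0.40, limma adjusted p = 1 over all genes). Per2 had 1035 against 968, 996 and 792 (log2 difference 0.18, SE 0.27, limma adjusted p = 1), and Arntl had 4443 against 4292, 5085 and 5309 (log2 difference -0.13, SE 0.20, limma adjusted p = 1). Of the 13 repressor and output genes, 5 (Dbp, Nr1d1, Per2, Per3 and Ciart) had G4 above G3, G5 and G6. Of all genes examined, 24.5% did so, and nothing is read from this count. Ciart had 103 in G4, the highest of the 21 samples outside A4, B4 and C4, against 92.9, 56.0 and 64.1 (log2 difference 0.56, SE 0.31, limma adjusted p = 1), and the log2 difference was 0.38 for Per3 and 0.41 for Nr1d2. Nr1d1 differed most of these, with 6138 in G4, 5038 in G3, 1466 in G5 and 1930 in G6, a log2 difference of 1.34 (SE 0.59, limma adjusted p = 1). G3 and G4 were both high for Nr1d1, and the difference was 1.87 without G3 and 0.98 without G5. With 1 sample of number 4, the spread was pooled over 16 samples and G4 was assumed to vary like the others. Whether the G4 differences are smaller than those in A, B and C was not tested.

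Across all 30667 genes, limma called 0 higher and 0 lower in G4 (0% each) at an adjusted p under 0.05, and 1124 (3.67%) at an unadjusted p under 0.05. With a pseudocount of 0.1 in place of 1 there were 6. The smallest p-values among higher genes were those of Otud7a (log2 difference 1.23, SE 0.26, limma adjusted p = 1), Rag1 (4.97, with 64.4 normalized counts in G4 against at most 3.83) and Hikeshi (0.45). Otud7a was also higher in A4, B4 and C4, by 0.92, 1.35 and 0.45. The smallest among lower genes were those of 3 gene models, Gm45606 (log2 difference -3.15, limma adjusted p = 0.779), Gm6015 and Gm26838, with 0.00985, 0.0110 and 0.0100 normalized counts in G4. Of the 49 shared genes, 13 had G4 above G3, G5 and G6, as 24.5% of all genes examined did, and 4 had it below (22.8%).

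The other numbers also differed among themselves in some of the clock genes and not in others. In the 20 samples not numbered 4, an F test with the letter as a block found differences among numbers 1, 2, 3, 5 and 6 for 8559 of 30667 genes (27.9%, limma adjusted p under 0.05). Of the 13 repressor and output genes 8 passed, among them Nr1d2 (adjusted p = 0.00229), Nr1d1 (0.00385) and Per3 (0.0125), and Dbp (0.118), Per2 (0.562) and Ciart (0.707) did not. Of the 8 activator genes 7 passed, Arntl at 0.00304 and Npas2 at 0.00177. In A, B and C the geometric mean of Nr1d1 was 1133 normalized counts in number 1, 2147 in number 2, 5667 in number 3, 17211 in number 4, 4322 in number 5 and 6577 in number 6. Arntl ran from 4962 in number 1 to 2299 in number 4. Number 1 was thus the lowest for Nr1d1 and the highest for Arntl, and number 4 the reverse. Dbp was 404 in number 1, 630 to 784 in numbers 2, 3, 5 and 6, and 3458 in number 4.

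Alox15 encodes arachidonate 15-lipoxygenase, which makes lipid mediators in eosinophils, macrophages and airway epithelium. It had 48612, 49083 and 40089 normalized counts in A4, B4 and C4. Its values in numbers 3, 5 and 6 were 11108, 25889 and 6801 in A, 8757, 18724 and 6832 in B, and 13272, 23405 and 6341 in C. In each of the 3 letters number 4 was highest, number 5 next and number 3 after it. The mean log2 difference was 1.96 ± 0.28 (SD over 3 letters). In G the gene was low throughout, at 1466 to 4128, and G4 had 1949, a log2 difference of -0.71 (SE 0.70, limma adjusted p = 1). Among numbers 1, 2, 3, 5 and 6 Alox15 differed with a limma F test adjusted p of 0.000439.

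No other gene of the 16 on the eicosanoid list met the size rule in all 3 letters. The list's median log2 differences were -0.30 in A, 0.06 in B and 0.12 in C. Hpgd, whose product inactivates prostaglandins, went the other way, with 1337, 1298 and 1620 normalized counts in A4, B4 and C4 against 1696 to 3463. Its log2 differences were -1.05, -1.03 and -0.74, and G4 (1281) was also the lowest of its 4, by -0.96 (SE 0.42, limma adjusted p = 1). Alox5 had -0.57, -0.02 and 0.11, and Ltc4s, the leukotriene C4 synthase gene, had 0.54, 0.44 and 0.55, with number 3 above number 4 in B and C. Eosinophil genes were mixed beside Alox15. Ccr3, an eosinophil chemokine receptor, had 20.9, 37.3 and 43.7 normalized counts and log2 differences of -1.67, -1.21 and -0.91, and Epx, the eosinophil peroxidase gene, had log2 differences of 0.45, 0.40 and 0.03. Of the 17 type 2 immunity and eosinophil genes measured, the size rule was met by Clca1 alone.

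Cyp1a1, whose product oxidizes polycyclic aromatic hydrocarbons and which the aryl hydrocarbon receptor (AhR) switches on, had 12331, 12273 and 9198 normalized counts in A4, B4 and C4. Numbers 3, 5 and 6 had 3031, 7049 and 2463 in A, 5822, 5852 and 3106 in B, and 4593, 5067 and 3953 in C. The 3 samples lay above all 9 compared samples, though B1 reached 9354 and so passed C4. The log2 differences were 1.72, 1.38 and 1.03. Cyp1a2, its neighbour in the family, followed with 1.57, 1.38 and 0.76, and Cyp1b1 with 1.02, 0.61 and 0.30. Ahrr, the receptor's repressor, had 0.47, 0.50 and 0.40, and in A5 (583) it was higher than in A4 (560). Of the 12 AhR and NRF2 targets, 4 had number 4 above the others in each letter, against 5.08% of all genes examined. The size rule was met by Cyp1a1 alone, and by 0.223% of all genes. G4 had 1956 normalized counts of Cyp1a1, a log2 difference of 0.05 (SE 0.56, limma adjusted p = 1) whose sign turned, to -0.36, without G5.

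Of the 6 red blood cell list genes, Slc4a1 alone met the size rule in all 3 letters. Slc4a1, the anion exchanger of the red cell membrane, had 9428, 9082 and 7713 normalized counts in A4, B4 and C4, against 404 to 5985 in all others. Alas2, the first enzyme of haem synthesis in red cells, had 21628, 20823 and 16467, and was highest of numbers 3 to 6 in each letter, though A5 (17007) passed C4. Kel, Rhd and Hemgn, named after their values were seen, also met the size rule; the first encodes a blood group antigen, as does the second, and the third a nuclear protein of red cell precursors. Their log2 differences in C4 were 1.12, 1.10 and 1.08. Beta globin (Hbb-bs) had a log2 difference of 0.53 in C4. In that list, 3 of 6 genes had number 4 above the others in each letter, against 5.08% of all genes examined. The list's score, a mean log2 deviation from each gene's own mean, was 1.81, 1.63 and 1.75 in the 3 samples and -1.76 to 1.59 in the 21 others. In G4 it was -1.44, and Slc4a1 had 489 normalized counts there. The part of blood content in the clock, Alox15 and Cyp1a1 values was not tested; A5, with a red blood cell score of 1.59, had 572 normalized counts of Dbp, inside the range of the 9 compared samples, and 25889 of Alox15 and 7049 of Cyp1a1, the highest of the 9.

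**Figure D3:**
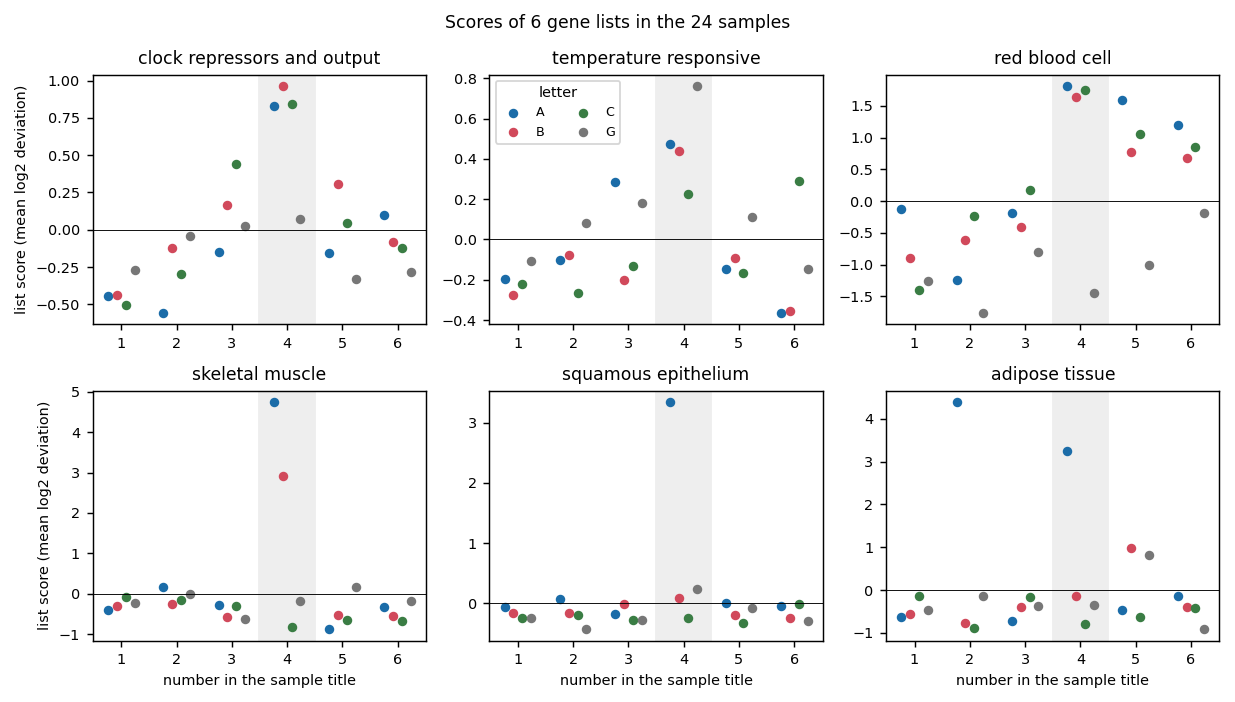
Scores of 6 gene lists (deviation of each gene's log2 value from its own average in the 24 samples, averaged over the list) by the number in the title, with a point per sample coloured by letter and number 4 shaded. The clock repressor score is 0.83, 0.96 and 0.84 in A4, B4 and C4 and at most 0.44 in the others, while the skeletal muscle score is high in A4 (4.75) and B4 (2.91) and not in C4 (-0.82).

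Genes of the mucus-making airway epithelium were also among the 49. Clca1, a goblet cell protein, had 5096, 2556 and 360 normalized counts in A4, B4 and C4, and Gp2, a membrane glycoprotein, had 1507, 963 and 311. Scgb3a1, a secretoglobin of the larger airways, had 21146, 30584 and 8408, against 1336 to 12878 in the 9 compared samples. Muc5b, the main airway mucin, and Agr2, a chaperone for mucin folding, had 2649 and 944 in C4, against at most 992 and 523 in C3, C5 and C6, though C1 (3672 and 963) passed C4 for both. Cyp2a4 and Cyp2a5 had log2 differences of 2.50, 2.48 and 1.55 and of 2.43, 2.61 and 1.44; they are close paralogs, so their split is uncertain. These genes also varied widely outside number 4: G5 had 3657 normalized counts of Clca1, 22342 of Scgb3a1 and 5464 of Cyp2a5, and C1 had 1377 of Clca1, more than C4. Scgb1a1, the main club cell secretory protein, had log2 differences of 0.18, 0.35 and 0.27. Of 5 club cell genes, 4 had number 4 above the others in each letter, against 5.08% of all genes examined. The club cell score was 2.80, 2.30 and -0.06 in A4, B4 and C4, inside the -1.59 to 2.35 of the others for C4 and B4 but not A4, and its part in the Cyp1a1 values was not tested. Pthlh, which encodes parathyroid hormone-related protein, had 327, 325 and 246 against at most 223 in any other sample, G4. Slfn14, a schlafen gene, had 242, 248 and 184 against at most 124.

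Hsph1, Hspa8 and Hsp90aa1, which encode heat shock chaperones, were highest of numbers 3 to 6 in the number 4 sample of all 4 letters, G included. Hsph1, a large cytosolic chaperone of the HSP110 family, had 11715, 12627 and 9067 normalized counts in A4, B4 and C4, with log2 differences of 1.03, 1.36 and 0.70, and 15368 in G4 against 9391, 8038 and 5305. The G4 difference was 1.06 (SE 0.50, limma adjusted p = 1). Hspa8 had log2 differences of 0.78, 1.02, 0.66 and 0.81 in A, B, C and G, and Hsp90aa1 of 0.53, 0.60, 0.45 and 0.66. Inducible Hspa1b reached 5782 in G4, but C6 (5188) was above C4 (2313). The cold-induced genes Cirbp and Rbm3 had negative differences in all 4 letters, from -0.68 to -0.15, and neither was outside the range of its letter's compared samples throughout. Of these 8 temperature genes, 4 had number 4 above the others in A, B and C, against 5.08% of all genes examined. In G 6 did so, against 24.5%. The size rule was met in all of A, B and C by 0. Letter by letter it was met by 3 in A4, 4 in B4, 0 in C4 and 3 in G4, against 3.72%, 2.3%, 1.06% and 0.748% of all genes examined. The list's score was 0.475, 0.441 and 0.226 in A4, B4 and C4 and highest in G4, at 0.762. Of the 14 glucocorticoid and fasting genes, 0 had number 4 above the others in each letter. Zbtb16, a glucocorticoid-induced factor, had 14773, 5270 and 11543 normalized counts in A4, B4 and C4, and B3 (14708) and C3 (25693) were above B4 and C4.

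Genes high only in A4, or only in A4 and B4, were set apart. By the size rule 532 genes (2.43%) were higher in A4 alone and 214 (0.976%) in A4 and B4 but not C4; per letter 817 (3.72%) were higher in A4, 505 (2.3%) in B4, 232 (1.06%) in C4 and 164 (0.748%) in G4. The A4 and B4 set was led by muscle: 13 of the 16 skeletal muscle and 8 of the 9 cardiac muscle list genes were in it. The skeletal muscle score was at most 0.158 outside A4, B4 and C4. Cardiac genes did not set B4 apart from the whole series. Their summed normalized counts were 65152 in A4 and 9540 in B4, but 25469 in G5 and 9895 in C1. Myl1, a fast skeletal myosin light chain, had 3868 normalized counts in A4, 592 in B4 and 1.18 in C4, against at most 43.3 elsewhere. Myl3 had 7222, 876 and 6.38, Myot, a Z-disc protein, 1447, 399 and 2.22, and Xirp2, of striated muscle, 1787, 770 and 0.13. Acta1, skeletal actin, had 41069 and 11389 in A4 and B4 and 846 in C4, inside the 500 to 2119 of the others. H19, an imprinted non-coding RNA that persists in adult muscle and was named after its values were seen, had 14513 and 2129, against 18.9 in C4. It met the shared rule only because C4 was above 4.95, 5.63 and 15.3, and Mybpc1 (4193, 1363 and 68.8) and Myf6 (227, 13.4 and 3.20) did so likewise. Myh8, the perinatal myosin heavy chain, had 29399 in A4 and 48.7 in B4. Bpifa1, an upper airway secretory protein, had 70692 and 7236, but also 12158 in A2 and 10652 in G5.

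Squamous epithelium was highest in A4, with a score of 3.34. The highest score outside A4, B4 and C4 was 0.233, in G4. There 5 of the 18 list genes were higher by the size rule, against 0.748% of all genes examined. Krt13, a keratin of wet squamous epithelium, had 6899 normalized counts in A4, 34.2 in B4 and 13.7 in C4. Elsewhere it had at most 78.6, in G4, a log2 difference of 1.47 there. Krtdap, a keratinocyte differentiation protein, had 552 in A4 and under 0.1 in every other sample, and Sprr3, a cornified envelope protein, had 407 and at most 1.01. Mt4, the metallothionein of stratified epithelium, had 237, and Rptn, an epidermal matrix protein, 234. Lor, a cornified envelope protein with 2238 in A4, met the shared rule with 2.18 in B4 and 9.51 in C4, against at most 7.04 elsewhere. Of 18 squamous list genes, 9 were in the A4 set, and of 8 fat genes 7. Smooth muscle genes also passed the size rule in A4, 5 of 7, and 0 in B4 and C4. Adipoq, the adiponectin gene, had 1404 in A4 and 20.8 and 4.30 in B4 and C4, but A2 had 2283, and the fat score of A2 (4.39) exceeded that of A4 (3.25).

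C4 carried neither. Its skeletal muscle score was -0.82 and its squamous score -0.24, both inside the range of the 21 samples outside A4, B4 and C4, and its cardiac score of -2.82 was near the lowest (-2.91). In C4 alone the log2 differences were 2.13 for Dbp, 1.54 for Nr1d1, 1.15 for Per2, 1.28 for Ciart, -0.74 for Arntl, 1.68 for Alox15 and 1.03 for Cyp1a1. Without A4 the mean log2 differences over B and C were 2.07 for Dbp, 1.49 for Nr1d1, 1.96 for Alox15 and 1.20 for Cyp1a1.

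**Figure D4:**
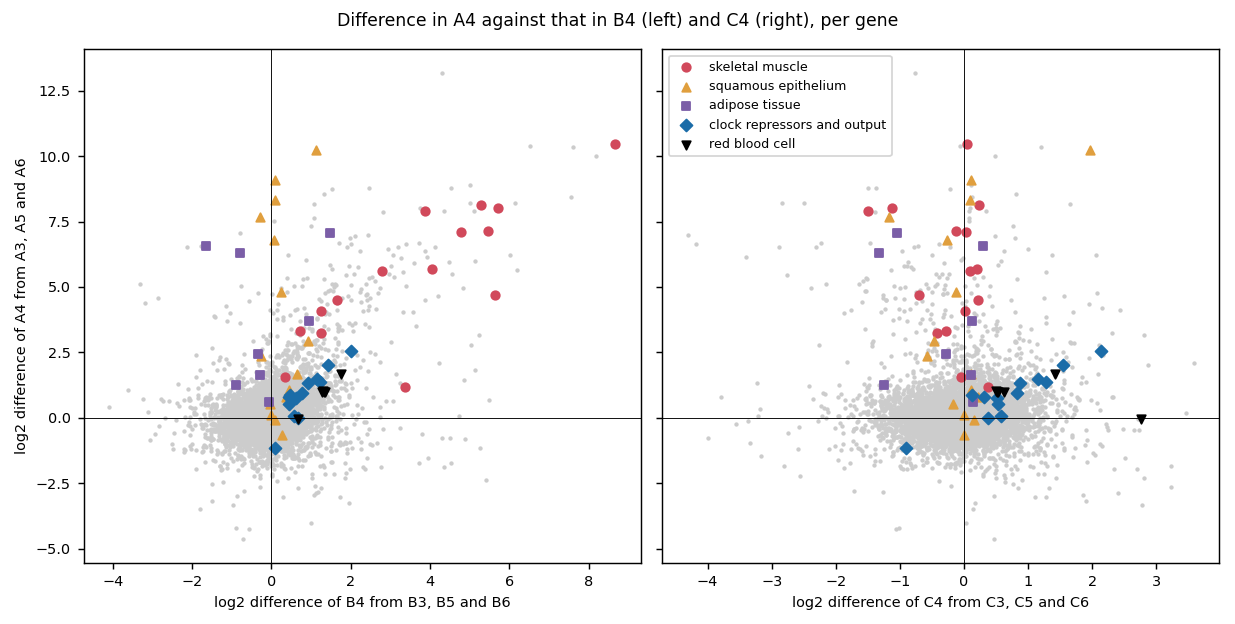
Log2 difference of A4 from A3, A5 and A6 (vertical) against that of B4 (left) and C4 (right) from their own letters, with a grey point per gene with a mean of at least 10 normalized counts and 5 lists in colour. Skeletal muscle genes lie high in A4 and B4 and near 0 in C4, where Myl1 is at 0.05, and squamous and fat genes are high in A4. Of the clock repressors and outputs, Dbp lies near the diagonal, at 2.55, 2.02 and 2.13 in A4, B4 and C4. Others lie off it, such as Usp2 at 0.89, 0.47 and 0.12 and Per1 at -1.15, 0.08 and -0.91.

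The remaining lists gave no gene that met the size rule in all 3 letters. They cover immune cells (B and plasma, T and NK, neutrophil, mast cell, macrophage), alveolar type 1 and type 2 cells, ciliated cells, endothelium, smooth muscle, cartilage, thymus, proliferation, extracellular matrix, nuclear retained RNA and immediate early genes. Immediate early genes went apart within number 4: Egr1 had 2723 normalized counts in A4, 6280 in B4 and 19490 in C4, with log2 differences of -1.54, 0.52 and 2.51. T and NK cell scores were -0.31, -0.29 and -0.25 in the 3 samples, and alveolar type 2 scores -0.35, 0.13 and -0.01.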

How the data were processed

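The deposited table holds signal values, which from their similar sums per sample look like normalized read counts per gene. The method is not given in the sources used here. Scaling to a common size alone would not give the small fractions among the lowest values. Krtdap had 0.0804 in B4, 0.0956 in C4, 0.0059 in B6 and 0 in B3, and Sprr3 had 0.0721 in B4 and 0.0856 in C4. What the unknown step does to low values in the number 4 samples was not tested. The submitters' processing notes name STAR and the mouse assembly GRCm38, although the organism is rat. Row names include 11535 of 30667 (37.6%) in the form of mouse gene models or clones, and 16143 (52.6%) match a rat RefSeq symbol. How far the choice of assembly moves the values was not tested, and levels were compared only within a gene. Strandedness is not stated, so overlapping and paralogous genes are uncertain. The reads behind each value are unknown, and no counting interval is given.

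Values were taken as log2(value + 1), which understates differences of low genes. Letter and number were read from the titles. The members and lists were chosen with earlier results of these data known. The contrast of A4, B4 and C4 with 9 samples was described by the rule of size and, as background, by limma-trend (limma 3.58.1, R 4.3.3) with the letter as a block. G4 was tested in a fit of 16 samples with terms for 4 letters, number 4 in A, B and C, and number 4 in G, and the numbers other than 4 by an F test in 20 samples. Limma used genes with a mean of at least 0.5 over 24 samples, which all 30667 passed; tests are two-sided, with Benjamini-Hochberg adjustment and a threshold of 0.05. The fits were tested on simulated data first.

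Named genes are the preset Dbp, Nr1d1, Per3, Arntl, Alox15 and Cyp1a1, both clock lists, up to 10 shared genes in each direction with a mean of at least 50, up to 5 genes of each set-apart group, list members that met the size rule, and up to 3 genes per direction with the smallest p in G4; others were named after their values were seen. The values of 1 clock list gene are not reported here. Alternatives were other pseudocounts, scalings, filters, fold limits and comparators, and leaving out each sample.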

Additional observations from a re-analysis of the deposited data

Results flagged for a closer look

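In each letter of 6 samples, the highest and the lowest value of each named gene and of each list score were set against Dixon's 95% limit. Of 266 groups checked, 32 had a sample past it; chance passes about 1 in 20 groups. Many of these genes were named because they are high in A4, B4 or C4, so the counts are not set against chance. A4 accounted for 13 of them, B4 for 7, C4 for 1 and G4 for 1. In A4 these were Dbp (3574 normalized counts), Per2 (3199) and Ciart (174.2), the squamous genes Krtdap (552.3), Sprr3 (407.3), Krt13 (6899), Mt4 (236.8), Rptn (233.8) and Lor (2238), the muscle genes Myot (1447) and Myl3 (7222), and the skeletal muscle (4.746) and squamous (3.343) scores. In B4 they were Ciart (177.4), Pthlh (325.0), Myl1 (591.5), Myot (399.0) and Myl3 (875.7), and the temperature (0.441) and skeletal muscle (2.913) scores. In C4 it was Cyp1a1 (9198), and in G4 the temperature score (0.762).

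Outside number 4, Clock was low in A2 (4772) and G2 (5172). Cry1 stood apart in B1 (1738), Arntl2 in A2 (111.5), Slfn14 in G6 (58.54) and Krt13 in B3 (63.65). The immediate early score stood apart in G6 (1.04), the fat score in B5 (0.979) and the neutrophil and acute inflammation score in A2 (3.069) and C2 (2.032).

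Of the 49 genes higher and 4 lower in A4, B4 and C4 by the rule of size, 20 had a G4 difference of the opposite sign. Among red cell genes the log2 difference of G4 from G3, G5 and G6 was -0.725 for Slc4a1, -1.107 for Hemgn, -1.069 for Kel and -0.627 for Rhd. It was -0.715 for Alox15, -0.02 for Gp2, -0.033 for Muc5b and -0.203 for Slfn14. Among the other higher genes it was -3.549 for Abca13, -1.856 for Igkv12-67, -0.621 for Igkv9-128, -1.33 for Six2, -0.522 for Calm5, -0.492 for Gap43, -0.387 for Plekhs1, -0.371 for Robo3, -0.33 for Has2, -0.17 for Myf6 and -0.141 for Calcb. Zdhhc22, lower in the 3 samples, was at 0.141. The difference between G4 and the other letters was not tested.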

How the results depend on the processing

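No paired analysis was possible because the number that could pair samples across letters is itself what was compared; the letter served as the block. The counts by the rule of size moved with its limits, in the order higher in all 3 (49), lower in all 3 (4), only A4 (532) and only A4 and B4 (214). They were 88, 19, 1697 and 427 with no filter on low values, 21, 0, 143 and 90 with a mean of at least 100, 137, 51, 1112 and 432 at 1.5-fold, and 11, 0, 267 and 117 at 3-fold. Asking 50 normalized counts of each of A4, B4 and C4, a setting chosen after seeing the data, gave 27, 0, 184 and 70. A pseudocount of 10 gave 24 higher and 0 lower in all 3, and 0.1 gave 8 lower in all 3 and 6 genes called in G4. Scaling to the 75th percentile and quantile normalization moved none of these counts by over 1.5 times.

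Leaving out 1 sample at a time gave 40 (without C6) to 263 (without C4) higher in all letters left, with 76 without A4, and 2 (without A6) to 45 (without C4) lower, with 37 without A4, 34 without B4 and 8 without C3. Without a number 4 sample, the rule asks for 2 letters instead of 3. The only A4 count ran from 503 to 746 and the only A4 and B4 count from 206 to 263. The limma count over 12 samples (40) ran from 0 without A4 or B4 to 106 without C4, with 80 without A3, 69 without C3, 26 without B5, 25 without C5, 19 without B3, 18 without A6, 15 without B6, 14 without A5 and 13 without C6. The cause was not tested. The G4 count was 0 in all 15 such fits, and the F test count ran from 7331 to 9454. Dbp, Nr1d1, Per3, Arntl, Alox15 and Cyp1a1 kept the direction of their mean difference in every setting. These genes were preset with earlier results of these data known, so this is a description and no support for the contrast. Against numbers 1, 2, 3, 5 and 6, Nr1d1 was at 2.38, Per3 at 1.42 and Alox15 at 2.62. The Cyp1a1 difference of G4 reversed, to -0.40 against those numbers and to -0.36 without G5, and reached 0.44 without G3. The reads behind the values are unknown, so depth sets no stated limit.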
